A study of Mus musculus with 6 samples.

Results

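Glucocorticoid receptors and their response genes were compared between VMHpvlm and VMHpvll, neighbouring parts of the ventrolateral ventromedial hypothalamus. The 7 genes were chosen by symbol from the 47480 rows of the normalised count table. They are the receptor genes Nr3c1 and Nr3c2, the enzyme gene Hsd11b1, and the hormone-responsive genes Fkbp5, Sgk1, Tsc22d3 and Per1. All 7 were found, and all 7 passed the filter for testing, a mean level of 10 or more, which 14522 genes reached. Both regions were laser-captured from frozen brain sections of female mice with the background VgluT2-cre/Ai6, in which cre expressed from the VgluT2 (Slc17a6) locus switches on a fluorescent reporter. There were 6 bulk RNA libraries, 3 per region, and each of 3 names in the titles (F19, F20 and KH_161103) occurs once per region. Whole tissue of each region was captured, so cells other than glutamatergic neurons are included. Mouse age, oestrous stage, time of day at collection and corticosterone level: none is given in the sources used here.

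Corticosterone, the main glucocorticoid of mice, enters cells and binds intracellular receptors that then act on DNA. The mineralocorticoid receptor (Nr3c2) has the higher affinity and is largely occupied at resting hormone levels, whereas the glucocorticoid receptor (Nr3c1) is filled at the daily peak and under stress. Hsd11b1 regenerates active hormone inside the cell, and Fkbp5 encodes a co-chaperone that lowers the hormone affinity of the receptor and is itself induced by it. Sgk1 encodes a kinase acting on ion channels and transporters, Tsc22d3 the anti-inflammatory protein GILZ, and Per1 a component of the circadian clock. All of the last group are textbook glucocorticoid-induced genes.

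The response element bound by these receptors is a palindrome of half-sites, and its letters were searched in RefSeq promoter windows (GRCm38.p6, the assembly behind mm10) of 300 bases each, from 250 bases before to 50 after an annotated start. The search is reported for 14 windows of 6 of the 7 genes. Windows of Nr3c1 were left out by selection, so nothing is said here about that gene. The core ACANNNTGT, which reads the same on both strands, was present in 2 of these 14 windows and in 6.85% of all 32851 windows. Both windows belonged to Sgk1, which has 6 annotated starts on the plus strand of chromosome 10. They are shown because one of them holds the full palindrome, AGAACA and TGTTCT separated by 3 bases, which was found in 3 of the 32851 windows. Capitals mark the core half-sites.
Sgk1, chr10:21993640-21993939: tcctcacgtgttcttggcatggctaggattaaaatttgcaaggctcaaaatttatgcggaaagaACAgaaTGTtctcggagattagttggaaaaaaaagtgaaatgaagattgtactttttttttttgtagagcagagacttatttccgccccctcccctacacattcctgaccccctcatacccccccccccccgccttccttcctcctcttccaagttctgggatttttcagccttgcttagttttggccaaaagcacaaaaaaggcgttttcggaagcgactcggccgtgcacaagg
Sgk1, chr10:21978422-21978721: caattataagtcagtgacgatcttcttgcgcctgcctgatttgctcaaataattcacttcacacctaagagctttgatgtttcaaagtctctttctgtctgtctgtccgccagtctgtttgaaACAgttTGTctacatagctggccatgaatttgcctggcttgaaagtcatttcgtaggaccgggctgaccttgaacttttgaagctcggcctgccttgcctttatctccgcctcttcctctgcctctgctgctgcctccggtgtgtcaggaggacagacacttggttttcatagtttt
In the first window the core spans 21993704 to 21993712, with its centre 182 bases before the annotated start. In the second window it spans 21978545 to 21978553, with its centre 123 bases before the start, and the outer half-site letters were not present. The match is a description of letters, and binding was not measured.

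The libraries held between 7157831 and 11293159 recovered reads. Of 8 markers of VMH neurons, 7 were higher in VMHpvlm by limma and 0 in VMHpvll, among them Nr5a1 at 308 ± 19.5 against 31.5 ± 6.73 normalised counts. The lowest difference of the 8 was -0.08, and without the F20 pair 1 of them was called toward VMHpvll. Those markers were chosen with earlier results of these libraries known. Slc17a6, the glutamatergic marker, was high in both regions, at 4665 ± 139 in VMHpvlm and 4946 ± 17.1 in VMHpvll. Its mean was thus higher in VMHpvll, opposite to Nr5a1. In these bulk samples, fewer cells of a type and less RNA per cell cannot be told apart. Levels are normalised read counts, given as mean ± SD over 3 libraries per region. A difference is the VMHpvlm level minus the VMHpvll level after log2(value + 1), fitted by limma with the shared name as a block. A gene was called at a Benjamini-Hochberg adjusted p below 0.05 over all tested genes.

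The 7 genes did not move together. Nr3c1 was higher in VMHpvlm, Fkbp5 and Sgk1 were higher in VMHpvll, and 4 genes were not called. Over all tested genes, 20% (2905 of 14522) were called, 10.5% higher in VMHpvlm and 9.48% higher in VMHpvll. On recovered reads edgeR called the same number of the 7 genes, 3, against 19.8% of all tested genes, and DESeq2 called 1, against 8.47%. The median difference of the 7 genes was 0.16, against 0.0025 over all tested genes. Groups did not overlap for 4 of the 7 genes (Nr3c1, Fkbp5, Sgk1 and Per1), and this held for 28.0% of all tested genes.

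**Figure D1:**
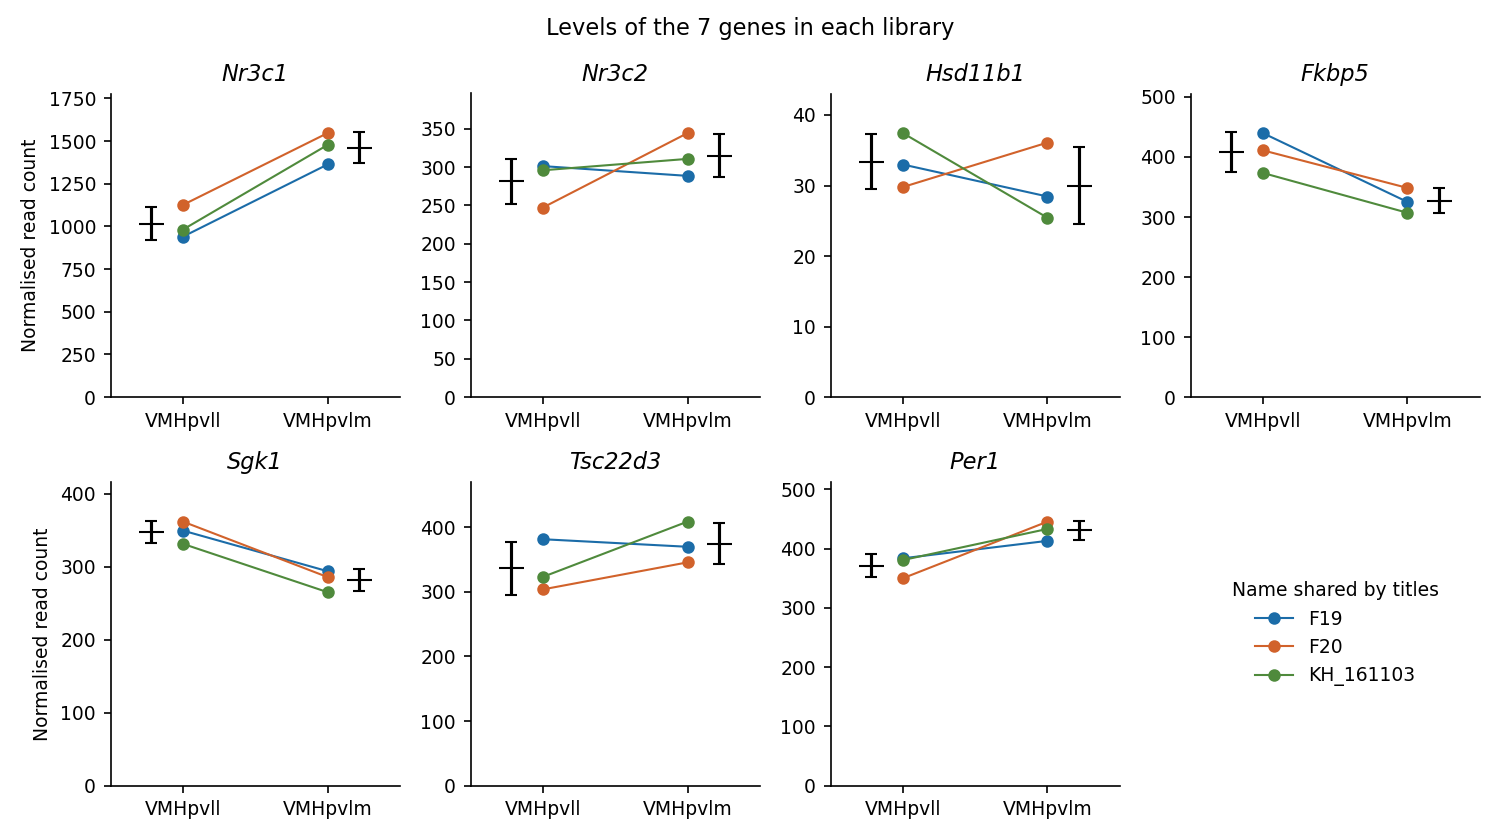
Normalised read count of each gene in each library (vertical axes from 0, a separate scale per gene), where a line connects the 2 libraries of a name and black bars give mean and SD of 3 libraries. The lines of Nr3c1 and Per1 rise from VMHpvll to VMHpvlm in 3 of 3 pairs, those of Fkbp5 and Sgk1 fall in 3 of 3, and those of Nr3c2, Tsc22d3 and Hsd11b1 go both ways.

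Nr3c1 lies on chromosome 18 from 39410545 to 39519421 on mm10. In VMHpvlm its normalised read count was 1363 in F19, 1546 in F20 and 1477 in KH_161103. In VMHpvll it was 940 in F19, 1126 in F20 and 981 in KH_161103. Every VMHpvlm library lay above every VMHpvll library, and F20 was the highest library of each region. The region means were 1462 ± 92.8 and 1016 ± 97.6. The fitted difference was 0.53 ± 0.052 SE (limma Benjamini-Hochberg adjusted p = 4.77e-11), which is a 1.44-fold ratio of the means with an interval from 1.34 to 1.55 on the fitted scale. Within pairs it was 0.54 in F19, 0.46 in F20 and 0.59 in KH_161103, higher in VMHpvlm in 3 of 3. In absolute size it exceeded the difference of 88.6% of tested genes. The adjusted p was 0.0557 when the variance prior was fitted without trend and robust, and between 1.61e-19 and 2.17e-05 under the other 12 alternatives, the highest being the fit with no block.

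Nr3c2, the mineralocorticoid receptor gene on chromosome 8 (76899442 to 77245012), differed less clearly. In VMHpvlm it was at 288 in F19, 344 in F20 and 311 in KH_161103. In VMHpvll it was at 301 in F19, 247 in F20 and 296 in KH_161103. The groups overlapped, and the F20 pair held both the highest VMHpvlm library and the lowest VMHpvll library. The fitted difference was 0.16 with a 95% interval from -0.04 to 0.36 (limma Benjamini-Hochberg adjusted p = 0.283), and it was positive in 2 of 3 pairs. Within pairs it was -0.06 in F19, 0.48 in F20 and 0.07 in KH_161103, and without the F20 pair the fitted value was 0.0042. Exons of Gm10649 on the opposite strand overlap 3.82% of the Nr3c2 exon length, and the use of strand in counting is not known.

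Levels of different genes were compared per kilobase of merged exon length, a scale that depends on the annotated isoforms. On it Nr3c1 was the most abundant of the 7 genes in both regions, at 190 ± 12.1 in VMHpvlm and 132 ± 12.7 in VMHpvll. Nr3c2 was at 48.6 ± 4.34 and 43.5 ± 4.59 per kilobase. The ratio of Nr3c1 to Nr3c2 on this scale was 3.98 in F19, 3.78 in F20 and 4.01 in KH_161103 of VMHpvlm. In VMHpvll it was 2.63 in F19, 3.84 in F20 and 2.80 in KH_161103. This transcript ratio was therefore nearly equal across the 3 VMHpvlm libraries. In VMHpvll the F20 library stood at the VMHpvlm level, and F19 and KH_161103 were lower. Receptor protein was not measured. The log2 change of the ratio was 0.60 in F19, -0.02 in F20 and 0.52 in KH_161103, with a mean of 0.37 ± 0.34 (SD, n = 3 pairs). Without the F20 pair the mean was 0.56. The ratio is given as a description and was not tested; an exact sign-flip test over 3 pairs cannot go below a two-sided p of 0.25.

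**Figure D2:**
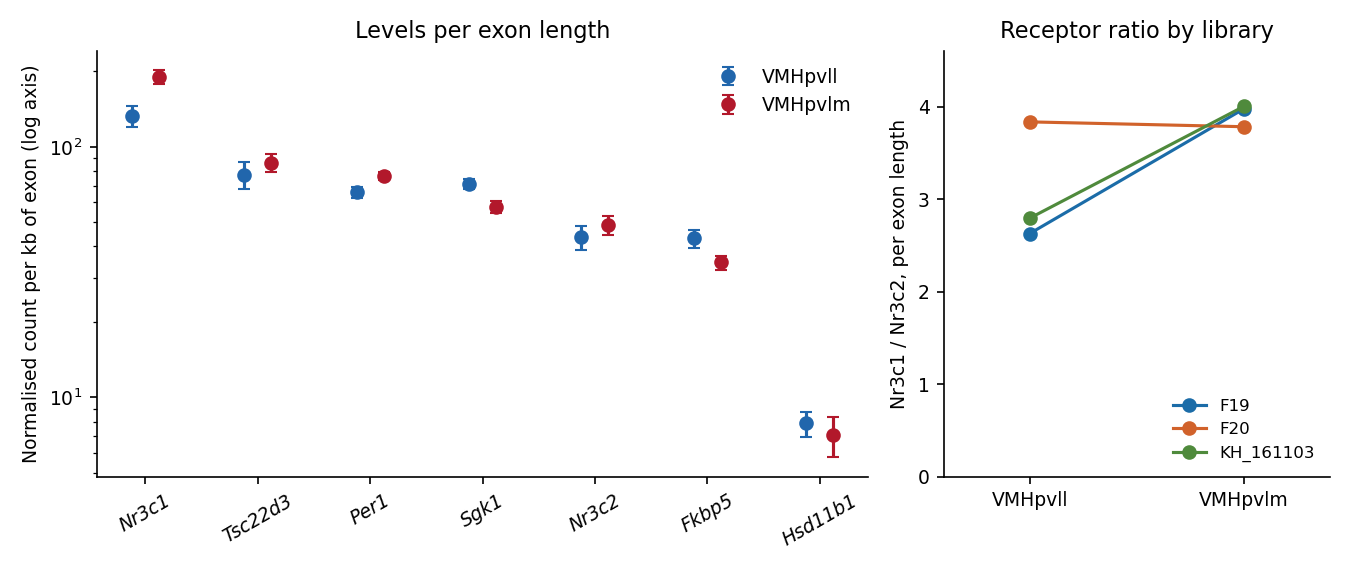
Left, mean and SD (3 libraries) of the normalised count per kilobase of exon on a log axis for each gene in each region. Right, the ratio of Nr3c1 to Nr3c2 per exon length in each library, with lines joining shared names; the F20 line is flat at 3.84 and 3.78, and the F19 and KH_161103 lines rise to 3.98 and 4.01.

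The order by level per kilobase below Nr3c1 differed between the regions. In VMHpvlm it ran Tsc22d3 (86.3 ± 7.33), Per1 (76.5 ± 2.91), Sgk1 (57.5 ± 3.02), Nr3c2, Fkbp5 (34.5 ± 2.19) and Hsd11b1 (7.05 ± 1.29), and no neighbours in that order overlapped over the libraries. In VMHpvll it ran Tsc22d3 (77.4 ± 9.31), Sgk1 (70.9 ± 3.13), Per1 (65.96 ± 3.31), Nr3c2, Fkbp5 (43.1 ± 3.51) and Hsd11b1 (7.86 ± 0.903). There the libraries of Tsc22d3 overlapped those of Sgk1, those of Sgk1 overlapped those of Per1, and those of Nr3c2 overlapped those of Fkbp5. Sgk1 and Per1 thus changed places, Per1 being above Sgk1 in VMHpvlm, with overlapping libraries in VMHpvll.

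Hsd11b1, on chromosome 1 from 193221634 to 193264075, was the least abundant member. Its VMHpvlm values were 28.4 in F19, 36.1 in F20 and 25.4 in KH_161103, against 33.0, 29.8 and 37.4 in VMHpvll. The groups overlapped, and VMHpvll was higher in 2 of 3 pairs. Only 20 to 41 reads lay behind each value, for which counting alone gives an error of 15.6% to 22.4%, against an SD of 18.3% and 11.5% of the mean within the regions. The gene was not called: the fitted value was -0.16 (limma Benjamini-Hochberg adjusted p = 0.752), with a 95% interval from 0.617-fold to 1.30-fold. Hsd11b2, which encodes the opposing enzyme that inactivates corticosterone, was below the level for testing, at 0, 0 and 1.82 in VMHpvlm and at 9.89, 1.49 and 5.48 in VMHpvll.

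Fkbp5 and Sgk1 were lower in VMHpvlm, the region with more Nr3c1. Fkbp5 lies on chromosome 17 (28399094 to 28517527). In VMHpvlm it was at 325 in F19, 348 in F20 and 307 in KH_161103. In VMHpvll it was at 440 in F19, 411 in F20 and 373 in KH_161103. All 3 VMHpvlm libraries lay below all 3 VMHpvll libraries, and KH_161103 was the lowest of each region. The means were 327 ± 20.8 and 408 ± 33.3, 1.25-fold higher in VMHpvll, with a fitted difference of -0.32 ± 0.084 SE (limma Benjamini-Hochberg adjusted p = 0.00439). The adjusted p was 0.142 by DESeq2 on recovered reads, 0.124 without trend and robust, and 0.0791 without the F19 pair, so those settings ended the call, whereas edgeR kept it at 0.00391.

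Sgk1 spans 21882184 to 21999903 on chromosome 10. In VMHpvlm it was at 294 in F19, 286 in F20 and 265 in KH_161103. In VMHpvll it was at 350 in F19, 362 in F20 and 331 in KH_161103. The groups did not overlap, and the spread within each region was small. The means were 282 ± 14.8 and 348 ± 15.3, 1.23-fold higher in VMHpvll, with a fitted difference of -0.30 ± 0.090 SE (limma Benjamini-Hochberg adjusted p = 0.0112). Within pairs the value was -0.25, -0.34 and -0.32 in F19, F20 and KH_161103. The call ended by DESeq2 (adjusted p = 0.228), without trend and robust (0.109) and without the KH_161103 pair (0.103), and edgeR gave 0.00883. The reads were counted over the whole gene, so the annotated starts shown above cannot be told apart.

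Tsc22d3 and Per1 had positive differences that were not called. Tsc22d3 is on the X chromosome (140539528 to 140600659). In VMHpvlm it was at 370 in F19, 346 in F20 and 409 in KH_161103, and in VMHpvll at 381, 304 and 323. The groups overlapped because F19 had slightly more in VMHpvll, while F20 and KH_161103 had more in VMHpvlm. The fitted difference was 0.16, with a 95% interval from -0.02 to 0.34 (limma Benjamini-Hochberg adjusted p = 0.229). Leaving out a pair gave values from 0.07 without KH_161103 to 0.26 without F19.

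Per1 lies on chromosome 11 from 69095217 to 69109960. In VMHpvlm it was at 413 in F19, 446 in F20 and 433 in KH_161103. In VMHpvll it was at 384 in F19, 350 in F20 and 381 in KH_161103. The libraries of the regions did not overlap, and VMHpvlm was higher in 3 of 3 pairs. The fitted difference was 0.21 ± 0.082 SE (limma Benjamini-Hochberg adjusted p = 0.0588), a 1.16-fold ratio of the means. It passed the threshold when libraries were scaled to the same total (0.24, adjusted p = 0.0342) and among genes with a mean of at least 50 (adjusted p = 0.0466). The other 11 alternatives did not call it. Among them, the adjusted p was 0.0789 by edgeR, 0.300 without the F20 pair and 0.525 by DESeq2.

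**Figure D3:**
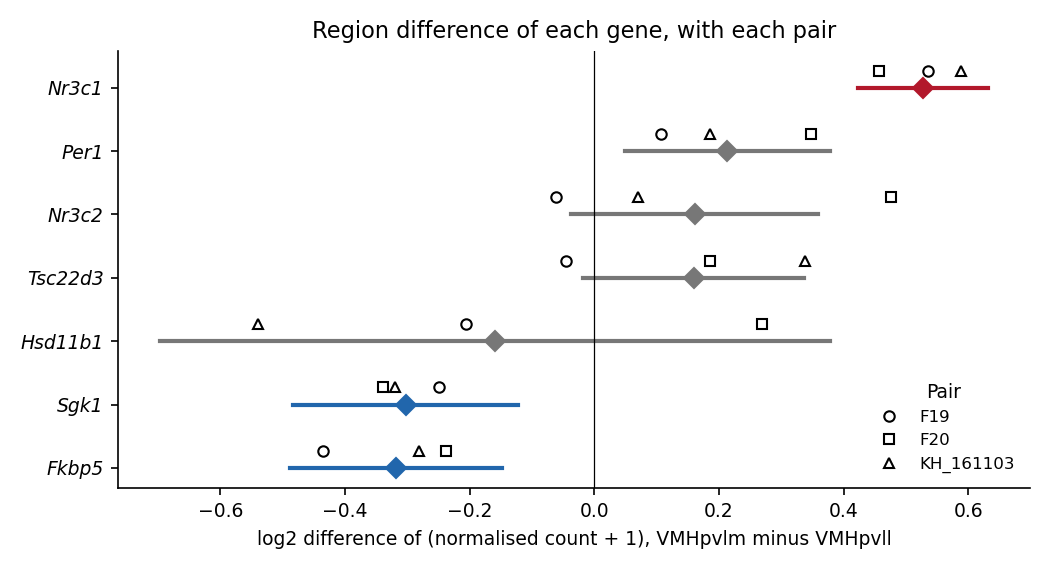
Fitted log2 difference (VMHpvlm minus VMHpvll) of each gene as a diamond with its 95% interval before adjustment, and the difference within each pair as open symbols. Red is called higher in VMHpvlm (Nr3c1), blue is called higher in VMHpvll (Fkbp5 and Sgk1) and grey was not called.

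The level of each gene was also compared among the shared names. By limma's F-test 0 of the 7 genes differed among F19, F20 and KH_161103 at an adjusted p below 0.05, against 5.36% of tested genes. The count was also 0 by edgeR, and 1 gene had an unadjusted p below 0.05 in either tool. That gene was Nr3c1, whose name means spanned 0.22 on the log2 scale (unadjusted p = 0.00468, limma Benjamini-Hochberg adjusted p = 0.0720). Tsc22d3 spanned 0.21 (adjusted p = 0.427), Fkbp5 0.16 (adjusted p = 0.535) and Per1 0.04 (adjusted p = 0.970). What a name stands for is not stated in the titles.

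The calls of the gene lists that follow depend on the variance prior and, for some, on the block. Without trend and robust, 0 genes were called among the relatives, chaperones, coregulators, SGK1 pathway, oligodendrocyte and astrocyte lists. In that fit 3 hormone-induced genes, 1 clock gene, 2 immediate early genes, 1 vascular marker, 5 GABAergic markers and 4 VMH markers were called. With no replicate block, 0 chaperones, 2 coregulators, 3 clock genes and 0 SGK1 pathway genes were called.

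Relatives of the members in the same families went both ways. Of 9 such genes 7 were tested, with 2 higher in VMHpvlm and 1 in VMHpvll (median difference -0.02). Per3, a clock gene related to Per1, was 1.34-fold higher in VMHpvlm, at 634 ± 59.6 against 474 ± 42.2 (limma Benjamini-Hochberg adjusted p = 8.41e-06). Per2 was at 262 ± 14.9 and 280 ± 12.1 and was not called (difference -0.10). Among relatives of Tsc22d3, Tsc22d4 was 1.32-fold higher in VMHpvll (301 ± 29.3 against 227 ± 18.1) and Tsc22d1 1.10-fold higher in VMHpvlm (2577 ± 43.7 against 2348 ± 135). Tsc22d2 (difference 0.10), Sgk3 (-0.03) and Fkbp4 (-0.02), the co-chaperone that competes with the Fkbp5 product on the receptor complex, were not called. Fkbp4 was 1468 ± 108 in VMHpvlm and 1487 ± 109 in VMHpvll. Sgk2 was below the level for testing, between 1.49 and 6.39. Without F19 or without KH_161103, 1 relative was called in each direction, and DESeq2 called 1 toward VMHpvlm and 0 toward VMHpvll.

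Steroid receptors are held ready for hormone by heat-shock chaperones and act through coregulators. Of 18 chaperones and co-chaperones, 1 was higher in VMHpvlm and 3 in VMHpvll (median 0.010). Dnajb1, an HSP40 co-chaperone, was 387 ± 29.8 against 327 ± 45.3. Hspa8, the constitutive HSP70, was 1.08-fold higher in VMHpvll (14135 ± 1089 against 13091 ± 940), and Dnaja1 and Stub1 had differences of -0.20 and -0.15. Exons of Hspa8, Dnaja1 and Stub1 overlap other genes, so their reads are uncertain. The list had 0 calls without F19, 2 without F20, 0 without KH_161103 and 0 by DESeq2, with 6 genes at an unadjusted p below 0.05 in the fit with all pairs. Of 22 coregulators, 2 were higher in each region (median -0.0065). Nrip1, a corepressor, was 905 ± 15.7 in VMHpvll against 693 ± 40.7, and Ppargc1a, a coactivator of energy metabolism genes, was 496 ± 1.79 against 383 ± 50.1. The corepressor gene Ncor1 was higher in VMHpvlm by 0.13, and its exons overlap other genes. The calls of the list toward VMHpvlm ended without F19, without KH_161103 and by DESeq2.

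Genes that set the corticosteroid level in the cell gave no call. Of 14 listed 7 were tested, with 0 called by limma, edgeR or DESeq2 and 2 at an unadjusted p below 0.05 by limma. The drug pump gene Abcb1a, which limits entry of some corticosteroids at the blood-brain barrier, was 204 ± 20.7 in VMHpvlm and 236 ± 23.1 in VMHpvll (difference -0.21). Abcb1b had a difference of -0.59 and the 5-alpha-reductase gene Srd5a1 of 0.29, and all 3 overlap other genes. Star, which moves cholesterol into mitochondria for steroid synthesis, was at 17.4 ± 10.4 and 7.36 ± 3.67, and 1 gene of the list was called without F19. The adrenal enzyme gene Cyp11b1 and Serpina6, which encodes the corticosteroid-binding globulin of blood, were at 0 in all 6 libraries.

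Other genes known to be induced by glucocorticoids went both ways. Of 40 listed 37 were tested, with 1 higher in VMHpvlm and 4 in VMHpvll and a median difference of -0.09. Klf9, a transcription factor gene induced by corticosterone in neurons, was 649 ± 21.9 in VMHpvlm against 520 ± 29.99 (limma Benjamini-Hochberg adjusted p = 0.000440). Its VMHpvlm libraries were at 668, 654 and 625 and its VMHpvll libraries at 542, 485 and 531, with no overlap. Rgs2, a regulator of G protein signalling, was 1.60-fold higher in VMHpvll (1182 ± 62.0 against 741 ± 28.2, adjusted p = 8.55e-13 by limma). Nfkbia, which encodes an inhibitor of NF-kappa-B, was 1.90-fold higher in VMHpvll (162 ± 13.6 against 85.5 ± 11.05, adjusted p = 1.71e-06 by limma). Tiparp had a difference of -0.74, with exons that overlap 4931440P22Rik, and Sox4, named after its values were seen, had -0.37. Gm26735 on the opposite strand overlaps 54.56% of the Sox4 exon length, so its reads are uncertain. The count toward VMHpvll was 7 without F20, 3 without F19 and 3 by DESeq2, and Klf9 was not called by DESeq2. The list's median was -0.16, 0.02 and -0.07 in F19, F20 and KH_161103.

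Clock genes other than Per1 form interlocking feedback loops with it. All 20 were tested, with 5 called toward VMHpvlm and 2 toward VMHpvll and a median of 0.09, against a median of 0.0025 and a called share of 10.5% and 9.48% over all genes. Besides Per3, Tef, a PAR bZIP output gene of the clock, was 2178 ± 66.6 against 1824 ± 136, with exons that overlap Gm17597. Nfil3, a repressor acting on the same sites, was 2.34-fold higher in VMHpvll (157 ± 23.5 against 67.2 ± 9.23, limma Benjamini-Hochberg adjusted p = 1.89e-08). Npas2 was 296 ± 34.8 in VMHpvll against 227 ± 42.1. The counts were 4 and 2 without F19, 4 and 1 without F20, 3 and 1 without KH_161103, and 2 and 1 by DESeq2. Whether the time of collection differed between the names is not stated, and both regions of a name share it only if they came from 1 animal.

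For the SGK1 pathway, 14 of 16 genes were tested, with 1 higher in each region and a median of -0.0082. Pdpk1, the kinase that activates SGK1, was 1735 ± 71.8 in VMHpvlm against 1547 ± 88.7 (difference 0.17). Ndrg2, which encodes an SGK1 substrate that astrocytes express strongly, was 3693 ± 382 in VMHpvll against 3252 ± 154 (-0.18). Mtor (0.11) and Foxo3 (0.11) were not called. The call of Pdpk1 ended without KH_161103, and DESeq2 called 0 genes of the list, with 3 at an unadjusted p below 0.05 by limma.

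Immediate early genes were examined because Per1 is also induced by neuronal activity. Calls among the 22 tested numbered 2 toward VMHpvlm and 3 toward VMHpvll (median -0.05). Klf6 was 353 ± 31.5 in VMHpvlm against 217 ± 21.2. Klf4 was 168 ± 56.9 in VMHpvll against 42.2 ± 16.4, Dusp6 119 ± 10.2 against 70.7 ± 7.04, and Jun 401 ± 52.2 against 286 ± 37.0, with exons shared with Junos. Without F20 the counts were 1 and 6.

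Glial and vascular cells also carry glucocorticoid receptors and express Fkbp5, Sgk1 and Tsc22d3. Many of their markers were higher in VMHpvll, as were Fkbp5 and Sgk1. Nr3c1 was higher in VMHpvlm (0.53), and Tsc22d3 had a positive difference that was not called (0.16). Among the 16 oligodendrocyte markers, VMHpvll was higher for 13 and VMHpvlm for 0 (median -0.41). Their summed level was 12836 to 14570 in the VMHpvlm libraries and 17232 to 18439 in the VMHpvll libraries. Mbp, the myelin basic protein gene, was 4688 ± 349 in VMHpvll against 3455 ± 270, and Mobp and Ermn had differences of -0.48 and -0.54. The count was 9 without F19, 9 without KH_161103 and 7 by DESeq2.

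Among the 14 markers of astrocytes, VMHpvll was higher for 6 and VMHpvlm for 0 (median -0.18), with sums of 34206 to 36296 in VMHpvlm and 39431 to 44653 in VMHpvll. DESeq2 called 4 of them. Aqp4, Gfap, S1pr1 and Ntsr2, the 4 with the smallest p, had differences of -0.41, -1.12, -0.35 and -0.29. The highest difference of the list was 0.06, and 8 markers were not called. Vascular markers numbered 16, of which 7 were called toward VMHpvll and 0 toward VMHpvlm (median -0.46), with sums of 2272 to 2650 and 3171 to 3839. Kdr, Flt1, Pecam1 and Rgs5 had differences of -0.96, -0.55, -0.71 and -0.28. The vascular count was 3 without F19, 4 without KH_161103 and 2 by DESeq2. No marker of these lists was at 0 in any library. The part of these cells in the differences of Fkbp5 and Sgk1 was not tested.

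Of 14 microglia markers, 0 were called by limma, edgeR or DESeq2, with 1 at an unadjusted p below 0.05 by limma (median -0.05). Their sums were 1585 to 1662 in VMHpvlm and 1629 to 1840 in VMHpvll. Ctss, Trem2 and C1qa had differences of -0.21, -0.37 and -0.28. Of 7 tested GABAergic markers, 7 were higher in VMHpvll (median -1.40), with sums of 2272 to 2477 in VMHpvlm and 3699 to 4308 in VMHpvll, and the part of these neurons in the differences of Fkbp5 and Sgk1 was not tested either. Besides Nr5a1, the VMH markers Cnr1, Fezf1 and Adcyap1 moved with Nr3c1 toward VMHpvlm, by 1.01, 0.89 and 0.57, and the summed level of that list was 10516 to 10863 in VMHpvlm and 8136 to 8672 in VMHpvll. Whether VMHpvlm held a larger share of VMH neurons was not measured, and any part of it in the Nr3c1 difference was not tested.

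**Figure D4:**
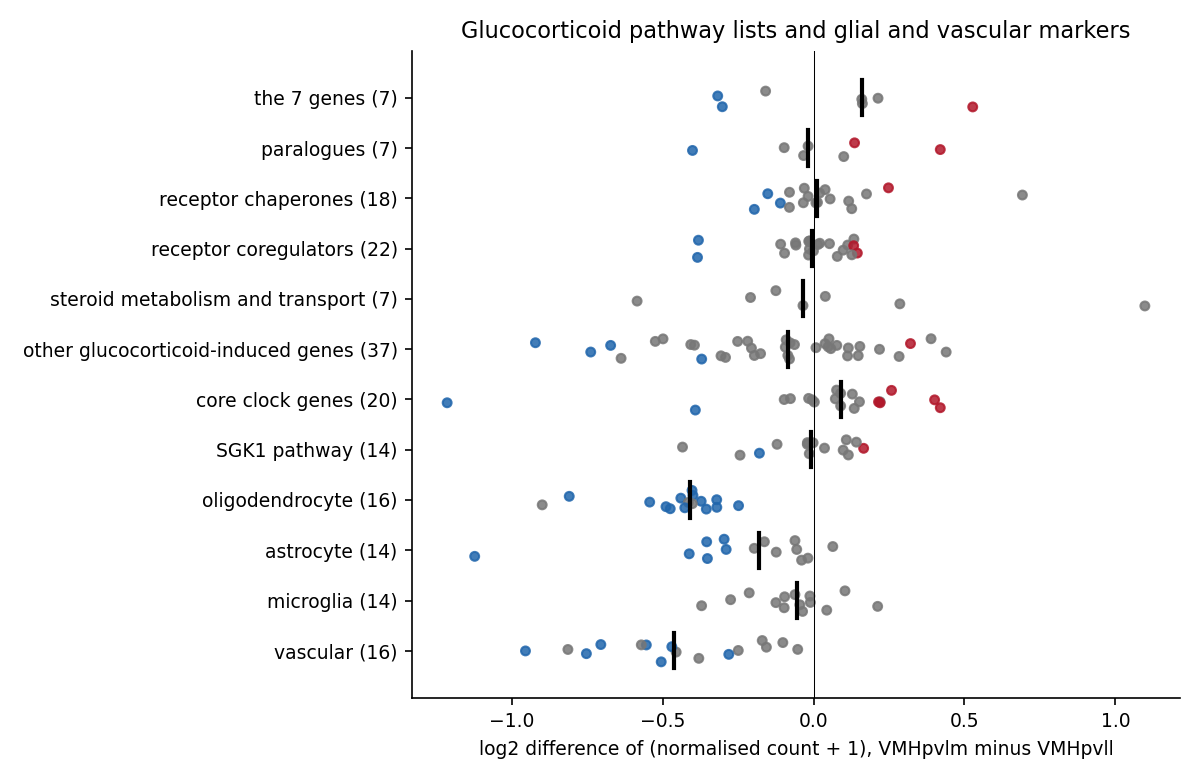
Fitted log2 difference (VMHpvlm minus VMHpvll) of every tested gene of the 7, of 7 pathway lists and of 4 marker lists, with gene numbers in brackets and medians as black lines. The immediate early gene, GABAergic (median -1.40) and VMH neuron (median 0.73) lists are not drawn. Red marks a call toward VMHpvlm and blue a call toward VMHpvll; the oligodendrocyte and vascular lists lie left of 0, with medians of -0.41 and -0.46, and the pathway medians lie between -0.09 and 0.09.

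The genes most like each member over the 6 libraries were found by Pearson correlation of log2 values among genes with a mean of at least 50. With 6 points that share regions and names, many genes reach a high value: 775 of 11126 genes had a correlation of at least 0.9 with Nr3c1, 398 with Sgk1, 301 with Fkbp5, 236 with Per1, 55 with Nr3c2 and 51 with Tsc22d3. For Nr3c1 the nearest were Kcnk2, a potassium channel gene (0.999), Eps8 (0.998) and Ntrk3, the neurotrophin-3 receptor gene (0.998). For Fkbp5 they were Abca7 (0.994), Sox4 (0.991) and Lbr (0.989), and for Sgk1 Stmn4 (0.993), Auh (0.992) and Cmip (0.989). For Per1 they were Capza2 (0.992), Galnt18 (0.992) and Gabrb1 (0.988), and for Nr3c2 A830039N20Rik (0.988), Uhrf2 (0.986) and Arhgap27 (0.972). Acat2 (0.990), Svil (0.981) and Bcs1l (0.975) were nearest to Tsc22d3, and Tpst1 (0.974), Phkb (0.971) and Sgms1 (0.968) to Hsd11b1, whose low counts leave its pattern uncertain. No gene was nearest to more than 1 member.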

How the data were processed

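RNA from laser-captured VMHpvlm and VMHpvll (3 libraries each) was sequenced after a stranded total RNA preparation, per the labels' protocols. The submitters' processing notes list HISAT2, featureCounts and mm10 and no version of either tool. Annotation, strand setting and scaling tool: none is given in the sources used here. The deposited values are a normalised signal in which each library's gene counts had been divided by its own size factor: 100% of non-zero values were whole multiples of 1 read within 0.05 reads, and recovered reads gave edgeR and DESeq2 their input. Their median-of-ratios size factors matched the deposited scaling within 0.49%.

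The test was limma 3.58.1 (R 4.3.3) on log2(value + 1), eBayes with trend and robust, two-sided, with region and the shared name as a fixed block, for 14522 genes with a mean of at least 10. The fit left 2 residual degrees of freedom, to which the variance prior added a median of 39.9, so p-values rest largely on spread shared between genes. The names were taken as pairs because the titles share them. Same-name libraries deviated together (correlations 0.26, 0.24 and 0.36, against -0.25 to 0.01 for different names). Deviations from a region's mean cancel out over its 3 libraries, so part of that contrast is built in. The titles do not say that a name is 1 animal, so p-values measure spread between these libraries. Same-region libraries differed by more than sampling noise (chi-square per degree of freedom 5.13 to 8.94). The members and the 14 gene lists were chosen with earlier results of these data known. Named genes were the 7 members, their relatives, up to 4 genes per other list by smallest p, and the 3 genes most correlated with each member; a few that this rule names are not reported here. Alternatives used no block, another pseudocount (0.5 or 5), another filter or scaling, a prior without trend and robust, edgeR 4.0.16, DESeq2 1.42.0, and each pair left out. The limma code was also run on simulated counts with the same dispersion for every gene, which checks the code and not the p-values given here. Positions and exon lengths came from GENCODE M21 (same build, 96.45% of tested symbols) and promoter windows from RefSeq GRCm38.p6.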

Additional observations from a re-analysis of the deposited data

How the results depend on the processing

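Of the 14522 tested genes 2905 were called between the regions, against 1800 with no replicate block, 422 with the prior without trend and robust, 1230 by DESeq2 and 1773 to 2872 with a pair left out. Of the 7 members 3 were called, against 0 without trend and robust, 1 by DESeq2 and 2 to 3 with a pair left out; the replicate block changed no call of a member. Without trend and robust the differences themselves were the same (Nr3c1 0.53, Fkbp5 -0.32, Sgk1 -0.30) and were not called. DESeq2 gave -0.33 for Fkbp5 and -0.31 for Sgk1, without a call. Leaving out a pair gave -0.36 to -0.26 for Fkbp5, -0.33 to -0.28 for Sgk1 and -0.37 to 0.03 for Hsd11b1, whose sign reversed without KH_161103 (0.031). Per1 was called after scaling to equal totals (0.24) and among genes with a mean of at least 50 (0.21). The other 11 alternatives did not call Per1. The differences among names were called for 778 genes, 0 without trend and robust and 144 to 753 with a pair left out. Among the members, 0 were called in any fit that tested the names, which DESeq2 and the fit with no block did not. The cause was not tested. With 166 to 477 reads per library for Nr3c2, Fkbp5, Sgk1, Tsc22d3 and Per1, counting error was 4.58% to 7.76%. Hsd11b1 was not tested at a mean of at least 50.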

Other observations

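Of the 37 tested genes known to be induced by glucocorticoids, 4 differed among F19, F20 and KH_161103 by limma's F-test with Benjamini-Hochberg adjustment, against 5.36% of all tested genes. They were named after their values were seen: Glul, the glutamine synthetase gene of astrocytes (adjusted p = 7.21e-06), Tiparp (0.00316), the metallothionein gene Mt1 (0.0105) and Plin4 (0.0450). Among the 18 receptor chaperones 4 also differed among the names: Hsp90aa1 (limma Benjamini-Hochberg adjusted p = 1.02e-06), Hspa8 (8.2e-05), Hsp90ab1 (0.00271) and St13 (0.0241). Without trend and robust 0 of all tested genes differed among the names. What the names stand for is not stated, and animal, preparation and date cannot be told apart.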
